A study of Mus musculus with 12 samples.

Results

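The Mettl7 methyltransferase paralogues of the mouse were followed in 4T1 cells through the RNA of sub-polysomal and of polysomal gradient fractions. They were the 4 genes of the count table, of 55376 listed, whose name was Mettl7a1, Mettl7a2, Mettl7a3 or Mettl7b. They were chosen by name with the counts of METTL7A1 and mock cells already known, so the differences between these cells are given for the 4 genes as a description with no test. Only the split between the pools, and its difference between genotypes, was tested.

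The METTL7 proteins are small methyltransferases that sit in the membrane of the endoplasmic reticulum and on lipid droplets, anchored by a hydrophobic N-terminus, and use S-adenosylmethionine (SAM) as methyl donor. Human METTL7A and METTL7B are known as alkyl thiol methyltransferases. In the mouse the A form is encoded by a cluster of neighbouring copies and the B form by a single gene on another chromosome. An mRNA on which many ribosomes are translating sediments with polysomes, whereas free, stored or sparsely translated RNA stays in the lighter, sub-polysomal part of a sucrose gradient.

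4T1 is a mouse mammary carcinoma cell line. Mock cells carried the empty pBICEP-CMV-2 vector, and METTL7A1 cells carried the Mettl7a1 cDNA in that vector under the CMV promoter with a FLAG tag; both lines were stable transfectants selected with G418. All cells received cycloheximide at 0.1 mg/ml for 5 min before lysis, and fractions 3 to 7 of the gradient were combined as the sub-polysomal pool and fractions 8 to 11 as the polysomal pool. Each genotype and pool had 3 libraries, whose replicate letters were A, B and C for mock and D, E and F for METTL7A1. The labels do not say whether replicates came from separate cultures or clones, so the p-values measure only the spread between these samples, which may be technical, and METTL7A1 itself and any other difference between the transfected lines cannot be told apart. A count of Mettl7a1 does not separate the cell's own transcript from that of the vector.

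Library totals lay between 1817520 and 5738989 counts in mock sub-polysomal RNA, which had the shallowest library, and between 3670942 and 6966156 counts in the other groups. No 2 libraries of a group agreed within sampling noise, with a chi-square per degree of freedom of 5.43 to 23.3 over the genes tested. All 8 epithelial markers were counted, with a summed level of 3102 to 7492 CPM (counts scaled to library size with TMM factors). The 14 markers of leukocytes, endothelium, fibroblasts, adipocytes and hepatocytes summed to 9.7 to 27.4 CPM, and Cd3e, Adgre1, Kdr and Apoa1 had 0 counts in every library. The summed epithelial level was 3102 to 3243 CPM in mock and 4024 to 5132 CPM in METTL7A1 sub-polysomal RNA, and its part in the differences between genotypes was not tested.

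The 3 A genes lay in a row on the plus strand of chromosome 15 within 57661 bases (GRCm38). Mettl7a1 spanned 100304180 to 100328662, Mettl7a3 100334929 to 100340375 and Mettl7a2 100353200 to 100361840. Mettl7b lay on the minus strand of chromosome 10, from 128958274 to 128960988, and its last 9 bases overlapped the end of the integrin gene Itga7 on the other strand. In the principal GENCODE transcript of each gene the coding sequence was 735 nt long, with 498 nt in exon 1 and 237 nt in exon 2. The 4 coding sequences could therefore be compared base by base without gaps. Mettl7a2 was identical to Mettl7a1 at 696 of 735 positions (94.7%), Mettl7a3 at 693 (94.3%) and Mettl7b at 471 (64.1%). Mettl7a2 and Mettl7a3 differed from each other at 7 positions, all in exon 1.

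The first 150 coding bases, in exon 1, are shown because they hold many of the differences by which a read can be assigned to 1 copy. Capitals mark bases that differ from Mettl7a1, of which Mettl7a2 had 14, Mettl7a3 16 and Mettl7b 71. The bases lie at chr15:100304847-100304996 (plus strand) for Mettl7a1, chr15:100353210-100353359 (plus) for Mettl7a2, chr15:100334930-100335079 (plus) for Mettl7a3 and chr10:128960789-128960938 (minus) for Mettl7b in GRCm38.
Mettl7a1: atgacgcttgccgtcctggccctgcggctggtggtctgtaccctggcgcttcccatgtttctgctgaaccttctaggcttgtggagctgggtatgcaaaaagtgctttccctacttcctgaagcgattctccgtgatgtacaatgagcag
Mettl7a2: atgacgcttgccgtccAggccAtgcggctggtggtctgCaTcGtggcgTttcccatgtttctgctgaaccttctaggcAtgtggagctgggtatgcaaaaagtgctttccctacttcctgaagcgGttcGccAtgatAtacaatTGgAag
Mettl7a3: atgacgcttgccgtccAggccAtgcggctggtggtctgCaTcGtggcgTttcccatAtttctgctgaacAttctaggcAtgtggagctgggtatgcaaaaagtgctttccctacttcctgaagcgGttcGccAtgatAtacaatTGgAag
Mettl7b: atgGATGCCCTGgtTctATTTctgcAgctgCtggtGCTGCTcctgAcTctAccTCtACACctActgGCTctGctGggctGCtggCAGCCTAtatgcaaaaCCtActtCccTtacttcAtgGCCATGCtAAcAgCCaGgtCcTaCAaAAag

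The longest coding stretch common to Mettl7a1 and Mettl7a2, coding bases 310 to 473 of exon 1, is shown because reads that fall wholly within it cannot be assigned to either gene. It was 164 nt long, at chr15:100305156-100305319 in Mettl7a1 and chr15:100353519-100353682 in Mettl7a2 (both plus strand). Mettl7a3 (chr15:100335239-100335402, plus) differed from it at 2 bases and Mettl7b (chr10:128960466-128960629, minus) at 45, again in capitals.
Mettl7a1 and Mettl7a2: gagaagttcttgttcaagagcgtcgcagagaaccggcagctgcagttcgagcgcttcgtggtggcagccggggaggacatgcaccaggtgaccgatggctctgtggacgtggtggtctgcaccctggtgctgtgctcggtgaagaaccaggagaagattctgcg
Mettl7a3: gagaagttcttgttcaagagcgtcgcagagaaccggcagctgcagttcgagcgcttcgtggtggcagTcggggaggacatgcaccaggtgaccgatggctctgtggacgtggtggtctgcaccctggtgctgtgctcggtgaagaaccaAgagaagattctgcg
Mettl7b: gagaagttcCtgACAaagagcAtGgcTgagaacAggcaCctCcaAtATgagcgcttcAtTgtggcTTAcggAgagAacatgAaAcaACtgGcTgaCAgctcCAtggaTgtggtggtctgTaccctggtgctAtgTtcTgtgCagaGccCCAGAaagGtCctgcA

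Over the whole coding sequence, 133 of 686 windows of 50 nt of Mettl7a1 (19.4%) occurred unchanged in the Mettl7a2 transcript and 102 (14.9%) in that of Mettl7a3. With windows of 100 nt the counts were 65 of 636 (10.2%) and 0. No window of 25 nt or longer was shared with Mettl7b, whose transcript had no run above 21 nt in common with that of Mettl7a1. Counts of the A copies can depend on how reads with several matches were handled, which is not given in the sources used here.

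**Figure D1:**
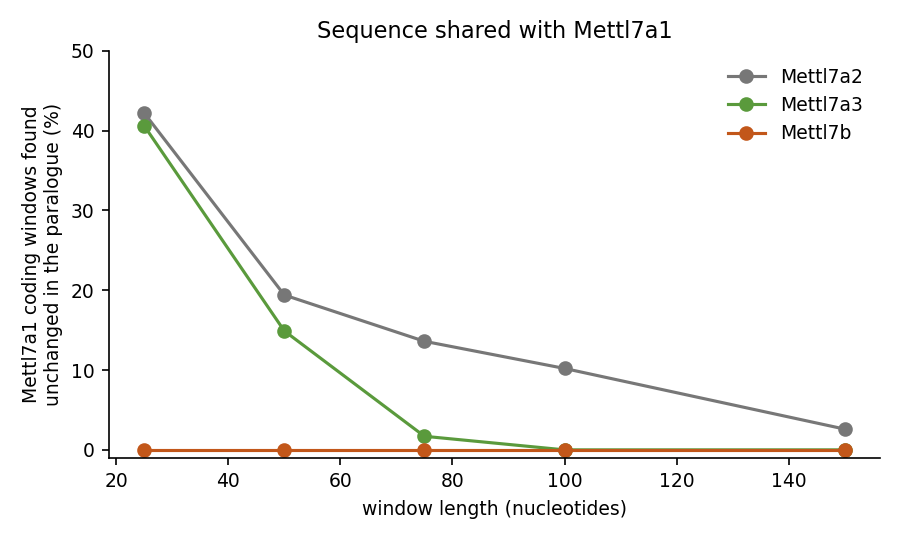
Share of the windows of the Mettl7a1 coding sequence (y axis, %) found unchanged in the principal transcript of Mettl7a2, Mettl7a3 or Mettl7b, against window length in nucleotides (x axis). At 75 nt the shares were 13.6% for Mettl7a2, 1.7% for Mettl7a3 and 0.0% for Mettl7b.

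Mettl7a1, the transfected gene, was scarce in mock and abundant in METTL7A1 cells. Mock sub-polysomal libraries A, B and C had 5, 4 and 16 counts of Mettl7a1, and the mock polysomal libraries 24, 22 and 23. The METTL7A1 libraries D, E and F had 1191, 1146 and 989 counts in sub-polysomal and 2252, 2436 and 1621 counts in polysomal RNA. Every METTL7A1 library lay above every mock library, as the labels have it. Its level was 2.41 ± 1.01 CPM in mock and 305.3 ± 81.3 CPM in METTL7A1 sub-polysomal RNA, and 3.05 ± 0.213 and 298.1 ± 21.8 CPM in polysomal RNA (SD, n = 3). The fitted log2 difference between METTL7A1 and mock cells was 6.93 (standard error 0.27) in sub-polysomal and 6.60 (standard error 0.24) in polysomal RNA. Per kilobase of gene length, Mettl7a1 lay above 15.3% of the 12224 genes tested in mock sub-polysomal RNA and above 92.6% in METTL7A1 sub-polysomal RNA. In polysomal RNA these shares were 19.5% and 94.5%.

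Mettl7a2, the copy next but one to Mettl7a1, had 0 counts in all 12 libraries. In METTL7A1 cells this was 0 against 9635 counts of Mettl7a1, which allows a share of up to 0.0383% (exact 95% interval, where 3 counts would be 0.0311%). Mettl7a3, the adjacent copy, had 0 counts in the 6 mock libraries. In METTL7A1 cells it had 1, 0 and 2 counts in sub-polysomal libraries D, E and F and 2, 1 and 1 counts in the polysomal libraries. These 7 counts were 0.0726% of the 9642 counts on both genes (exact 95% interval 0.0292% to 0.15%). Of the METTL7A1 pools, the sub-polysomal share was 0.0901% (0.0186% to 0.263%) and the polysomal share 0.0634% (0.0173% to 0.162%), with intervals that overlapped widely. The intervals and limits cover counting error only. They do not cover how reads with several matches, or reads over overlapping annotated genes, were handled. In mock cells the 94 counts of Mettl7a1 allow a share of up to 3.85% for either copy (exact 95% interval, where 3 counts would be 3.19%). A share as low as that of METTL7A1 cells was therefore not detectable there. Since all groups were at or near the limit of 3 counts, no fold change is given for either copy.

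Mettl7b, the B form, was the member with the highest level per kilobase in mock cells. It had 43, 103 and 187 counts in mock sub-polysomal libraries A, B and C and 71, 130 and 138 in mock polysomal libraries. In METTL7A1 cells the counts were 512, 706 and 743 in sub-polysomal and 406, 494 and 397 in polysomal libraries D, E and F. The level was 31.2 ± 6.41 CPM in mock and 174.2 ± 4.03 CPM in METTL7A1 sub-polysomal RNA (SD, n = 3), with no overlap. In polysomal RNA it was 14.9 ± 4.52 and 62.0 ± 5.77 CPM, again with no overlap. The fitted log2 difference between METTL7A1 and mock cells was 2.44 (standard error 0.19), or 5.44-fold, in sub-polysomal RNA and 2.05 (standard error 0.19), or 4.15-fold, in polysomal RNA. It was above that of 99.4% and 99.2% of the genes tested. In these bulk libraries, more cells with the transcript and more RNA per cell cannot be told apart.

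The order of Mettl7a1 and Mettl7b per kilobase turned between genotypes in polysomal RNA. In mock sub-polysomal RNA, Mettl7b was at 25.4 ± 5.21 and Mettl7a1 at 0.975 ± 0.41 CPM per kilobase, a ratio of 17.3 to 51.8 in the single libraries, which rests on the 4 to 16 counts of Mettl7a1. The mock polysomal ratio was 5.95 to 12.1. In METTL7A1 sub-polysomal RNA the levels were 141.6 ± 3.28 for Mettl7b and 123.4 ± 32.8 CPM per kilobase for Mettl7a1, with a ratio of 0.865 to 1.51, so that these neighbours in the order did not differ beyond their spread. In METTL7A1 polysomal RNA, Mettl7a1 at 120.5 ± 8.82 lay above Mettl7b at 50.4 ± 4.69 CPM per kilobase in each library (ratio 0.363 to 0.493). The table's gene length of Mettl7a1, 2474 bases, was used for the transfected transcript too, although the vector may carry less of it.

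**Figure D2:**
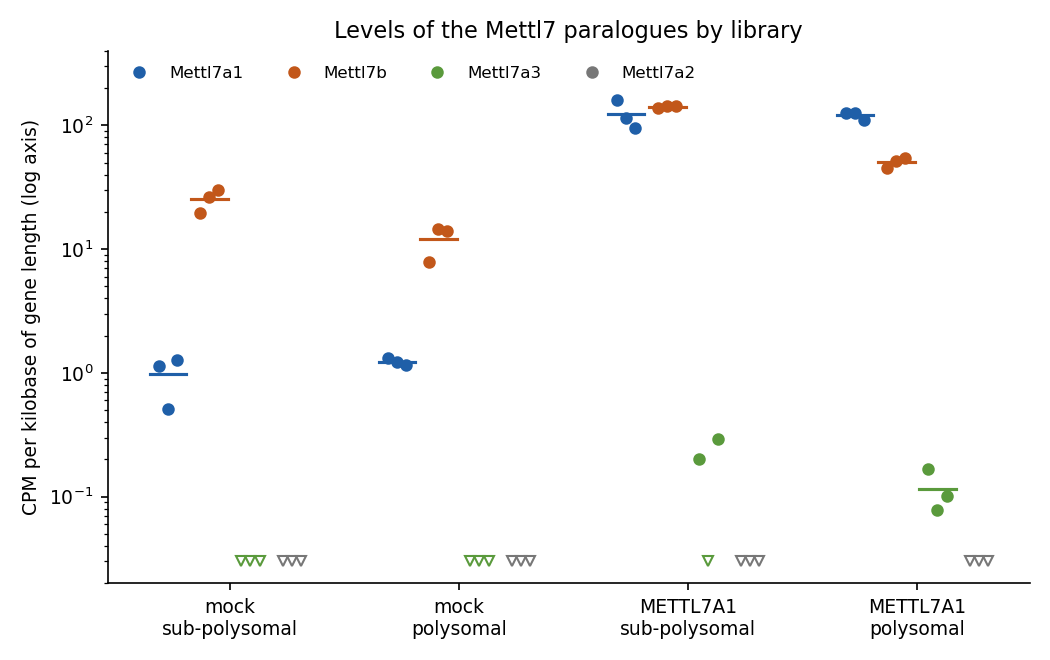
Level of each paralogue in each of the 12 libraries, in CPM per kilobase of the gene length in the count table (log axis), by genotype and pool. Points are libraries, horizontal lines means of 3 libraries where none was 0, and open triangles at the bottom are libraries with 0 counts; Mettl7a1 reaches the level of Mettl7b only in METTL7A1 cells, and Mettl7a2 has triangles alone.

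The pools were then compared within each genotype by edgeR's quasi-likelihood test, with Benjamini-Hochberg adjustment over the 12224 genes that reached 1 CPM in 3 or more libraries. Of the 4 members, 2 passed this filter, Mettl7a1 and Mettl7b. Calls needed both an adjusted p below 0.01 and a log2 change above 1.5 in size, which held for 7.55% of the genes tested in mock and 12.1% in METTL7A1 cells. By this rule 0 of the 2 members were called in either genotype, and limma-voom called 0 too, while DESeq2 called Mettl7b in METTL7A1 cells (log2 change -1.54). At an unadjusted p below 0.05, Mettl7b counted in both genotypes and Mettl7a1 in neither. Of the 12224 genes tested, 6617 in mock and 7735 in METTL7A1 cells had such a p. At an adjusted p below 0.05 with no limit on the change, Mettl7b was lower in polysomal RNA in both genotypes, among 23.7% and 29.3% of all genes.

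Mettl7b RNA lay toward the sub-polysomal pool in both genotypes. In mock cells the sub-polysomal levels were 24.3, 32.4 and 36.9 CPM and the polysomal levels 9.70, 17.9 and 17.1 CPM, with no overlap. The log2 change of polysomal against sub-polysomal RNA was -1.10 (standard error 0.20, 95% interval -1.52 to -0.68; edgeR's quasi-likelihood test, adjusted p = 2.32e-04). In METTL7A1 cells the sub-polysomal levels were 169.8, 175.2 and 177.7 CPM and the polysomal levels 55.6, 63.4 and 66.9 CPM, also without overlap. Here the log2 change was -1.49 (standard error 0.18, interval -1.86 to -1.12; same edgeR test, adjusted p = 1.2e-06), just short of the limit of 1.5. In linear terms, polysomal RNA held 0.467 of the sub-polysomal level in mock and 0.356 in METTL7A1 cells. Only 14.0% and 12.2% of the genes tested had a lower log2 change.

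Mettl7a1 showed no detectable difference between the pools. In mock cells the levels were 2.82, 1.26 and 3.16 CPM in sub-polysomal and 3.28, 3.02 and 2.85 CPM in polysomal RNA, which overlapped. The log2 change was 0.30 (standard error 0.37, interval -0.47 to 1.07, adjusted p = 0.528 in edgeR's test). In METTL7A1 cells the levels were 394.9, 284.4 and 236.5 CPM in sub-polysomal and 308.5, 312.8 and 273.0 CPM in polysomal RNA, again with overlap. The log2 change was -0.03 (standard error 0.17, interval -0.38 to 0.32, adjusted p = 0.884 in edgeR's test). The interval in mock cells, where Mettl7a1 had few counts, was the wider one.

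The shift to polysomes was the log2 change between pools in METTL7A1 cells minus that in mock cells. It was called for 0 of the 12224 genes tested (0%), at either of the rules above, and DESeq2 and limma-voom also called 0 at the stricter rule, while 1911 genes had an unadjusted p below 0.05. With no filter beyond 1 count in total, 10 of 22519 genes were called by the stricter rule, and no member was among them. For Mettl7b it was -0.39 (standard error 0.27, interval -0.95 to 0.17, adjusted p = 0.497 in edgeR's test). For Mettl7a1 it was -0.33 (standard error 0.41, interval -1.18 to 0.52, adjusted p = 0.74 in edgeR's test). Counts of Mettl7a1 include the vector transcript in METTL7A1 cells but not in mock cells. Its shift therefore does not follow a single mRNA. The ratios of single replicates were formed from libraries with the same letter, on log2 CPM with a prior count of 2. For Mettl7b they were -1.29, -0.85 and -1.09 for mock replicates A, B and C and -1.60, -1.46 and -1.41 for METTL7A1 replicates D, E and F. The two-sided exact permutation test gave p = 0.1, the smallest that 3 against 3 allows. With libraries joined by letter the genotypes did not overlap, but they did when every sub-polysomal was set against every polysomal library of its genotype (9 pairings each), with ratios of -1.89 to -0.43 in mock and -1.67 to -1.34 in METTL7A1 cells. The letters gave little sign of pairing the libraries, which cannot show that they were unpaired. The lack of overlap therefore rests on the letters. With the letter as a block, the shift of Mettl7b was -0.42 (standard error 0.21, adjusted p = 0.333 in edgeR's test). For Mettl7a1 the ratios were 0.19, 1.06 and -0.13 in mock and -0.36, 0.14 and 0.21 in METTL7A1 cells, which overlapped (exact permutation p = 0.5).

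**Figure D3:**
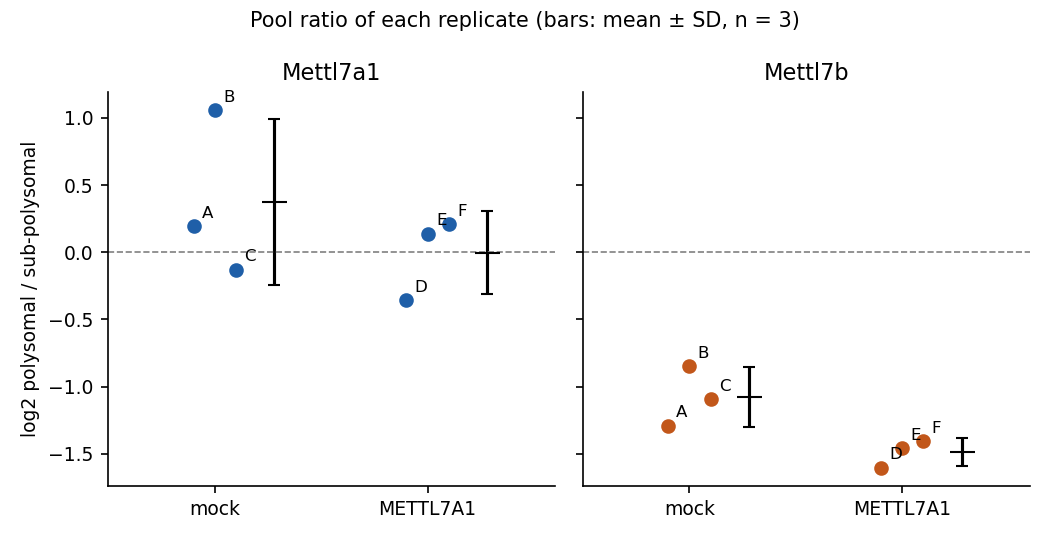
log2 ratio of the polysomal to the sub-polysomal level (y axis) of Mettl7a1 and Mettl7b for each replicate letter, by genotype (x axis); black bars are the mean and SD of 3 replicates. All 6 ratios of Mettl7b lie below 0, from -1.60 to -0.85, while those of Mettl7a1 lie on either side of it; libraries were joined by letter alone.

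Within METTL7A1 cells the paralogues could also be set against each other in the same library, where the scaling of the library cancels. The Mettl7b count was 43.0%, 61.6% and 75.1% of the Mettl7a1 count in sub-polysomal libraries D, E and F, and 18.0%, 20.3% and 24.5% in polysomal libraries D, E and F. The means were 59.9 ± 16.1% and 20.9 ± 3.28% (SD, n = 3). The pools did not overlap, with p = 0.1 in the two-sided exact permutation test, the smallest possible.

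The coding length of the members, 735 nt, is short, and transcripts of like coding length leaned the same way. The 726 other genes tested with a longest coding sequence of 662 to 809 nt had a median log2 change between pools of -0.15 in mock and -0.23 in METTL7A1 cells, against 0.05 and 0.06 over all genes tested. Mettl7b lay below the lower quartile of these genes (-0.61 and -0.81) in both genotypes. Mettl7a1, of the same annotated coding length, lay above their upper quartile in mock (0.22) and between the quartiles in METTL7A1 cells. Its mock value of 0.30 had a 95% interval of -0.47 to 1.07, which spans that quartile. In METTL7A1 cells its counts include the vector transcript, which carries a FLAG tag. The part of transcript length in these values was not tested.

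The other methyltransferase-like (METTL) genes give a frame for the members. Of 37 genes listed, 29 were tested, and their median log2 change between pools was -0.07 in mock and -0.42 in METTL7A1 cells. In mock cells 3 were called lower in polysomal RNA and 0 higher, and in METTL7A1 cells again 3 and 0, where 6.86% and 10.3% of all genes were called lower and 0.687% and 1.76% higher. Vcpkmt, which methylates the chaperone VCP, had a log2 change of -1.86 in mock and -1.90 in METTL7A1 cells. Mettl23, an arginine methyltransferase, had -1.71 and -2.01 and was called in both. Mettl9, a histidine methyltransferase, was called only in mock cells (-1.70, against -1.25) and Mettl22 only in METTL7A1 cells (-2.47, against -1.47), and the shift of neither was called. Mettl3 and Mettl14, the core of the m6A writer complex and named here after their values were seen, had log2 changes of 0.82 and 0.23 in mock and 0.96 and 1.04 in METTL7A1 cells. All these changes but that of Mettl14 in mock cells had an adjusted p below 0.05 in edgeR's quasi-likelihood test. Between genotypes, 0 of the 29 were called in either pool. At an adjusted p below 0.05, 5 were higher and 5 lower in METTL7A1 sub-polysomal RNA, and 1 was higher and 2 lower in polysomal RNA, where 16.8%, 14.5%, 9.69% and 8.28% of all genes were.

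**Figure D4:**
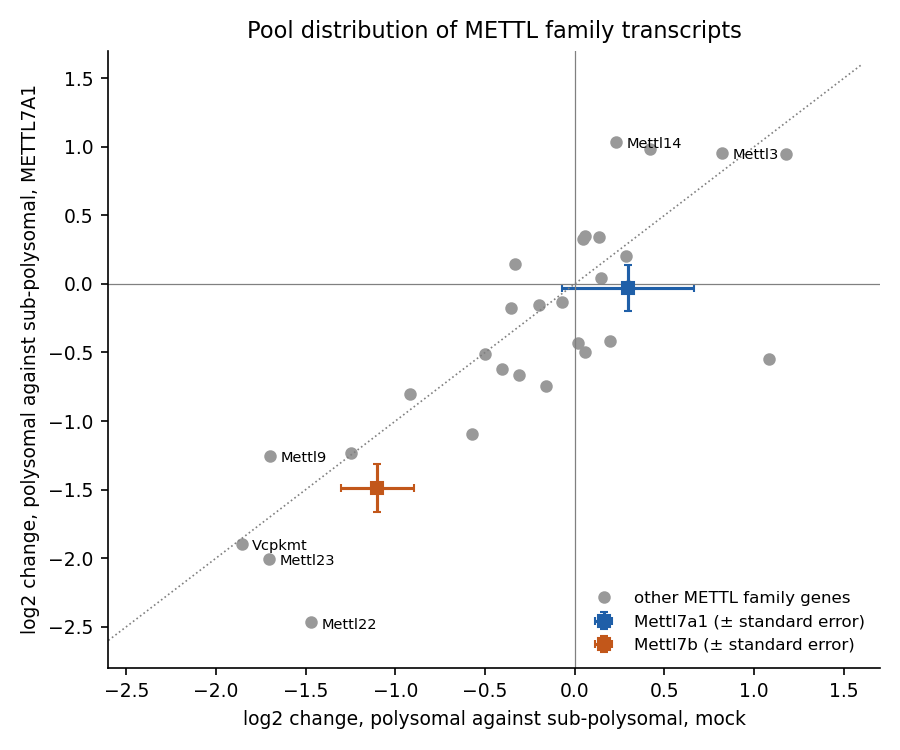
log2 difference of polysomal against sub-polysomal RNA in METTL7A1 cells (y axis) against that in mock cells (x axis) for 29 METTL family genes (grey) and for Mettl7a1 and Mettl7b (squares with standard errors); the dotted line marks equal changes. Mettl7b, at -1.10 and -1.49, lies in the lower left with Vcpkmt, Mettl9, Mettl23 and Mettl22, and Mettl7a1 lies near the origin.

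Among small-molecule methyltransferases, the class to which METTL7 enzymes belong by their thiol substrates, 9 of 17 were tested. Pemt, which makes phosphatidylcholine in the endoplasmic reticulum, was the 1 gene called, with a log2 change between pools of -1.98 in METTL7A1 cells and -1.45 in mock cells. This 1 of 9 was close to the 10.3% of all genes called lower in METTL7A1 cells. At an adjusted p below 0.05, 4 of the 9 were higher and 0 lower in METTL7A1 than in mock sub-polysomal RNA, where 16.8% and 14.5% of all genes were, and 2 were higher and 0 lower in polysomal RNA, where 9.69% and 8.28% were. Of the genes of SAM supply, 10 of 11 were tested and 0 were called in any comparison. At an adjusted p below 0.05, 8 of these 10 were higher in polysomal RNA in mock and 7 in METTL7A1 cells, with 0 lower, where 23.3% and 30% of all genes were higher. Their median log2 change was 0.78 in mock and 0.70 in METTL7A1 cells, opposite in sign to that of Mettl7b. Between genotypes, 1 of the 10 was higher and 4 lower in METTL7A1 sub-polysomal RNA at an adjusted p below 0.05, with a median log2 difference of -0.38, and 0 were higher and 1 lower in polysomal RNA, with a median of -0.37. Ahcy, which removes S-adenosylhomocysteine, the product of every SAM-dependent methyltransferase, and which was named after its values were seen, changed by 1.37 and 1.43. Of the genes of the endoplasmic reticulum and lipid droplets, 16 of 23 were tested and 1 was called, Aup1, a lipid droplet protein, with -1.78 between pools in METTL7A1 cells and -1.46 in mock cells. Between genotypes 4 of these 16 were higher and 3 lower in sub-polysomal RNA at an adjusted p below 0.05, where 16.8% and 14.5% of all genes were. In polysomal RNA 6 were higher and 2 lower, against 9.69% and 8.28% of all genes.

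The tested genes around Mettl7a1 and Mettl7b had smaller differences between genotypes than these members. Both members were chosen with that difference known, and the counts of Mettl7a1 in METTL7A1 cells include the vector transcript. The contrast with the neighbours is therefore a description. Within 500 kb of the A cluster 45 genes were listed, 26 had a count and 13 were tested. The fitted log2 difference between METTL7A1 and mock cells had a median of 0.20 in sub-polysomal and 0.21 in polysomal RNA over these 13, against 6.93 and 6.60 for Mettl7a1. Slc4a8, a bicarbonate transporter gene 457.6 kb from the start of Mettl7a1, was the 1 neighbour called, with 1.78 (adjusted p = 4.83e-04) in sub-polysomal and 1.90 (adjusted p = 6.71e-06, edgeR's quasi-likelihood test) in polysomal RNA, where 2.76% and 2.13% of all genes were called. It had 3 to 12 counts in mock and 23 to 43 counts in METTL7A1 sub-polysomal libraries. Of genes within 100 kb, the iron transporter gene Slc11a2 was at 1.04 and 0.90 (adjusted p = 1.94e-05 and 4.72e-05 in the same test) and the transcription factor gene Atf1 at -0.14 and 0.21. Dip2b, whose span ends within 100 kb of Mettl7a1, was at 0.435 and 0.615 (adjusted p = 0.194 and 0.0292 in the same test). Gm33666, at -7.0 kb, had 0 to 3 counts, and Gm5475, at 118.0 kb from the start of Mettl7a1 and past the cluster, had 0 or 1. Between the pools 1 of the 13 was called lower in polysomal RNA in mock and 2 in METTL7A1 cells, the pseudogene Uqcrh-ps1 (log2 changes of -2.01 and -2.19) in both and Smagp (-1.77, against -0.88 in mock) in METTL7A1 cells. Of all genes, 6.86% and 10.3% were called lower, so 1 of 13 was near that share.

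Around Mettl7b 68 genes were listed within 500 kb and 26 were tested. All 32 neighbours with a count lay at lower coordinates, where 40 were listed, and the 28 at higher coordinates had 0 counts in every library. The median log2 difference between METTL7A1 and mock cells was 0.35 in sub-polysomal and 0.28 in polysomal RNA over the 26 tested neighbours, against 2.44 and 2.05 for Mettl7b. None of them was called in the test between genotypes, and at an adjusted p below 0.05, 9 were higher in sub-polysomal and 6 in polysomal RNA, with 0 and 1 lower. Over all genes tested, 2.76% and 2.13% were called, and 16.8% and 9.69% were higher by the looser rule. Itga7, whose end overlaps Mettl7b by 9 bases, was at 0.42 (standard error 0.22) in sub-polysomal and 0.47 (standard error 0.17) in polysomal RNA. Between the pools Itga7 had log2 changes of 0.73 in mock and 0.77 in METTL7A1 cells, of the sign opposite to Mettl7b. Bloc1s1, at -40.4 kb and a subunit of lysosome-related organelle complexes, changed by -1.08 and -1.70 between the pools, like Mettl7b toward the sub-polysomal side. Rdh5, a retinol dehydrogenase gene at -44.7 kb, was at -0.66 (adjusted p = 0.127) in mock and -1.21 (adjusted p = 0.003, edgeR's quasi-likelihood test) in METTL7A1 cells. Bloc1s1 was 1 of 5 among the 26 neighbours called lower in polysomal RNA of METTL7A1 cells, with 3 in mock cells, where 10.3% and 6.86% of all genes were called lower. The others were Myl6b, Rpl41, Rps26 and the pseudogene Rpsa-ps2, with log2 changes of -3.42, -3.35, -1.82 and -2.85.

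**Figure D5:**
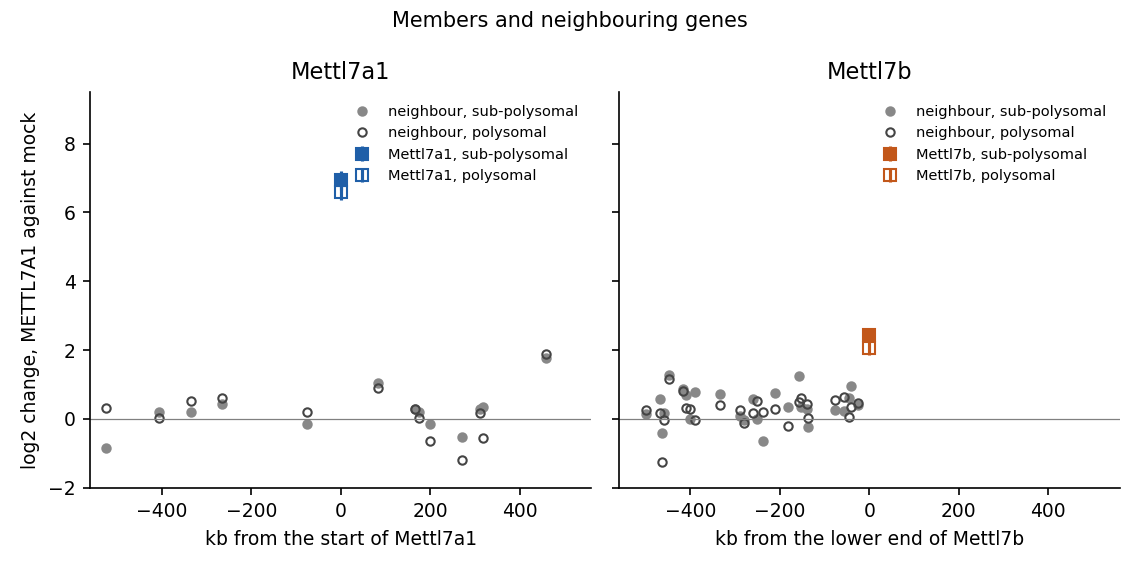
log2 difference between METTL7A1 and mock cells (y axis) for Mettl7a1, Mettl7b (squares, with standard errors) and the tested genes within 500 kb (circles), against distance in kb (x axis); filled symbols are sub-polysomal and open symbols polysomal RNA. Mettl7a1 at 6.93 and 6.60 and Mettl7b at 2.44 and 2.05 lie above all their neighbours. Both were chosen with this difference known.

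The transcripts most like Mettl7b over the 12 libraries were ranked by Pearson correlation of log2 CPM among 9456 other genes with a mean of at least 5 CPM. Sh2d1b1 came first (r = 0.992), followed by Sdf2l1, a component of chaperone complexes in the endoplasmic reticulum (0.982), Tmem40 (0.981), Sh3bp2, a signalling adaptor (0.979), and Pkd1l2 (0.977). All 5 were higher in METTL7A1 than in mock cells and lower in polysomal RNA. Mettl7b was so too, and the 5 were chosen by likeness to it, so these directions follow from the choice. Their fitted log2 changes between pools were -0.33 to -1.18 in mock and -0.62 to -1.30 in METTL7A1 cells. Within the 6 libraries of 1 genotype their correlations with Mettl7b were 0.907 to 0.959 in mock and 0.967 to 0.985 in METTL7A1 cells. The ranking of Mettl7a1 gave Bmp7, a growth factor of the bone morphogenetic protein group (0.99), Tnfrsf26 (0.989), Gpsm1 (0.987), Fgfbp1, a carrier of fibroblast growth factors (0.986), and Neurl3 (0.985). Within a genotype these correlations fell to between -0.25 and 0.62 in mock and between -0.32 and 0.53 in METTL7A1 cells, below the values over all libraries. Mettl7a1 and Mettl7b correlated at 0.837 over the 12 libraries, at -0.47 within mock and at -0.04 within METTL7A1 cells. The libraries share genotype, pool and depth, and the correlations are a description.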

How the data were processed

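RNA-Seq libraries of sub-polysomal and polysomal RNA of mock and METTL7A1 4T1 cells were analysed (12 libraries). The authors deposited whole-number counts per gene without normalization, made with STAR on mm10 and featureCounts with the GRCm38 annotation. The strand setting and the handling of reads with several matches are not given in the sources used here. Members were matched by gene name; the members and gene lists were chosen with earlier results of these data known. TMM factors scaled the counts, and edgeR 4.0.16 (R 4.3.3) fitted 1 model with a mean per group; contrasts were tested by the quasi-likelihood test. Calls needed an adjusted p below 0.01 and a log2 change beyond 1.5. CPM used TMM factors, log2 CPM a prior count of 2, and shares exact (Clopper-Pearson) 95% intervals. At these depths 3 counts equal 0.431 to 1.65 CPM. Named genes were the members, up to 4 called genes per list and comparison, the 5 genes most correlated with Mettl7a1 and with Mettl7b, and genes within 100 kb of the A cluster or 50 kb of Mettl7b; exceptions are stated. Sequences came from GENCODE vM21 transcripts (GRCm38), the build of the table. Alternatives were RLE factors, DESeq2 1.42.0, limma-voom (limma 3.58.1), Actb scaling, other filters, the replicate letter as a block, smaller fits, summed copies, other lengths and leaving out each library. The fit was tested on simulated data. 1 listed marker gene is not reported here.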

Additional observations from a re-analysis of the deposited data

How the results depend on the processing

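Mettl7b kept its sign in all comparisons under every alternative. Its change between pools in METTL7A1 cells, -1.49 and just short of the limit of 1.5, was called with RLE factors (-1.54), DESeq2 (-1.54), Actb scaling (-1.73), at least 10 counts in every library (-1.54), only the compared groups (-1.51) and the looser rule (-1.49), as was that in mock cells under the looser rule (-1.10). Leaving out 1 library gave -1.55 to -1.42 in METTL7A1 and -1.26 to -0.87 in mock cells, and was past the limit without METTL7A1 sub-polysomal D, METTL7A1 polysomal E or F or mock sub-polysomal A. The change of Mettl7a1 turned sign without single libraries, with a range of -0.009 to 0.72 in mock (lowest without sub-polysomal B) and -0.19 to 0.19 in METTL7A1 cells (0.19 without sub-polysomal D, 0.03 without polysomal F), and was called in none. At least 10 counts in every library removed Mettl7a1 from the test.

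Tested genes numbered 29, 9, 10 and 16 in the METTL family, small-molecule methyltransferase, SAM supply and endoplasmic reticulum lists. The neighbour lists of the A cluster and of Mettl7b had 13 and 26. Over all lists, 7 genes were called between pools in mock cells, 3 without polysomal A (3 to 10 on leaving out 1 library). Under the looser rule 44 were. In METTL7A1 cells 12 became 58 under the looser rule. Of all genes tested, 7.55% in mock and 12.1% in METTL7A1 cells were called. Under the looser rule 23.3% were higher and 23.7% lower in mock, and 30% and 29.3% in METTL7A1 cells. Between genotypes the 1 gene called, Slc4a8, became 4 genes with Actb scaling and 38 under the looser rule in sub-polysomal RNA. In polysomal RNA it became 2 genes with no filter, 25 under the looser rule, and 1 to 2 on leaving out 1 library (2 without mock polysomal A). With at least 10 counts in every library it was 0 in both pools, since Slc4a8 was then not tested. Of all genes tested in the main fit, 2.76% in sub-polysomal and 2.13% in polysomal RNA were called between genotypes. Under the looser rule 16.8% were higher and 14.5% lower in sub-polysomal RNA, and 9.69% and 8.28% in polysomal RNA. With the transcript's length for Mettl7a1, the polysomal ratio of Mettl7b to Mettl7a1 per kilobase in METTL7A1 cells was 0.331 in place of 0.421, and in sub-polysomal RNA 0.948 in place of 1.20. The gain of Mettl7b over the mock mean was 15.9% of the polysomal Mettl7a1 count, in place of 20.9%. Deviations of same-lettered libraries correlated at -0.29 to 0.11 across genes, which gave little sign of pairing. Deviations from means of 3 libraries cannot show that the letters were unpaired. With the letter as a block, the changes between pools were -1.07 (mock) and -1.49 (METTL7A1) for Mettl7b and 0.30 and 0.00 for Mettl7a1, and no call of a member changed. Over all lists 6 genes were then called in mock in place of 7 and 10 in METTL7A1 cells in place of 12. Among neighbours of the A cluster, the counts were 0 in place of 1 (Uqcrh-ps1) and 1 in place of 2. Of all 12224 genes tested, 816 in place of 923 and 1383 in place of 1480 were called. The causes of these changes were not tested, and the 4 to 16 counts of Mettl7a1 in mock sub-polysomal RNA limit its values there.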
